A study of Mus musculus with 4 samples.

Results

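The 10 genes described here carry the core of transforming growth factor beta (TGF-beta) signalling: the ligand genes Tgfb1, Tgfb2 and Tgfb3, the receptor genes Tgfbr1, Tgfbr2 and Tgfbr3, and the signal transducer genes Smad2, Smad3, Smad4 and Smad7. They were found by gene name among the non-control probes of a mouse whole genome Agilent array with 60-base probes, which gave 15 probes of 39429 for the 10 genes of 31896 named. Tgfb2, Tgfbr1, Tgfbr2, Smad3 and Smad4 had 2 probes each, and the brightest probe stood for its gene. All 15 probes were well above background on all 4 arrays, and none was saturated, so none of the 10 genes was lost to a filter on dim probes.

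Total RNA was measured in breast cancer cells cultured from mammary tumours of MMTV-Neu mice. Their Neu (Her2) transgene is under the control of the mouse mammary tumour virus promoter, which is active in mammary epithelium. Of the 4 samples, 2 were labelled Pak1 -/- (no functional copy of the p21-activated kinase gene Pak1) and 2 were labelled Pak1 +/+. All 4 carried the Neu transgene, were grown in low calcium medium with 5% horse serum, were starved of serum for 3 h and then received EGF (epidermal growth factor) for 15 min. Per the series' design, each group drew on 2 tumours and was run in duplicate, so each array was taken as 1 replicate of its group. The ages of the mice are not given in the sources used here. The question put to the 10 genes was whether their RNA differed between the Pak1 genotypes, and by how much against the spread between replicates. Values are background-corrected, quantile normalized log2 intensities, on which a difference of 1 is a factor of 2, and differences are Pak1 -/- minus Pak1 +/+. A gene was called higher or lower at a limma p, adjusted over all probes kept by the Benjamini-Hochberg method, under 0.05.

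TGF-beta ligands are made as latent precursors that are stored in the extracellular matrix until proteases or integrins release them. The active dimer binds the type II receptor (Tgfbr2), which phosphorylates the type I receptor kinase (Tgfbr1), while the type III receptor betaglycan (Tgfbr3) presents ligand and is needed most for the Tgfb2 product. The type I receptor phosphorylates Smad2 and Smad3, which join Smad4 and enter the nucleus, and Smad7 is a target gene whose product inhibits the type I receptor. In mammary epithelium the pathway is known as a brake on proliferation and, in advanced tumours, as a driver of invasion and of the epithelial to mesenchymal transition.

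The probe sequences below show which stretches of the transcripts were read, with positions on NCBI37/mm9 as the files give them. The Tgfb1 probe (chr7:26489877-26489936, plus strand) and the brighter Tgfb2 probe (chr1:188449333-188449392, minus strand) both read the codons near the end of the mature ligand. In capitals are 6 neighbouring codons with the same residues in both ligands, a run that reaches the last whole codon of the Tgfb1 probe. Within these codons 14 of 18 bases were identical. The dimmer Tgfbr2 probe (chr9:115999496-115999555, minus strand) is shown because it ends exactly on the receptor's stop codon, in capitals, after 19 codons of the open reading frame.
Tgfb1 probe: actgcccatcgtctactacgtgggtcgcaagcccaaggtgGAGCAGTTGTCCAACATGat
Tgfb2 probe: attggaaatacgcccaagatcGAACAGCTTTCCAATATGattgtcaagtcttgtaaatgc
Tgfbr2 dimmer probe: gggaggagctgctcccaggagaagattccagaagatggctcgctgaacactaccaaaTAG

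Of the 10 genes, 6 were lower in the arrays labelled Pak1 -/- (Tgfb2, Tgfb3, Tgfbr2, Tgfbr3, Smad2 and Smad4), 1 was higher (Tgfbr1), and 3 did not pass the test (Tgfb1, Smad3 and Smad7). Among all 22014 genes tested the background was high: 28.2% were called lower and 22.8% higher. Read against that background, the share of the 10 genes called lower was larger, at 60%. The share called higher was 10%, and as it rests on 1 gene it is not read as different from the background. The count lower fell to 3 without Pak1 +/+ replicate 1, to 4 without either array labelled Pak1 -/- and to 5 without Pak1 +/+ replicate 2, and the 1 gene higher kept its call only without Pak1 -/- replicate 2. Their median difference was -0.40, against -0.05 over all genes tested, and the median size of the difference was 0.40, against 0.32. The 2 arrays of a genotype did not overlap with those of the other for 8 of the 10 genes, against 77.6% of all genes, which is close to the background. In bulk RNA of this kind, fewer cells of a type and less RNA per cell cannot be told apart. All 4 arrays lay on 1 slide with the arrays of a genotype side by side, so slide position and genotype cannot be told apart.

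**Figure D1:**
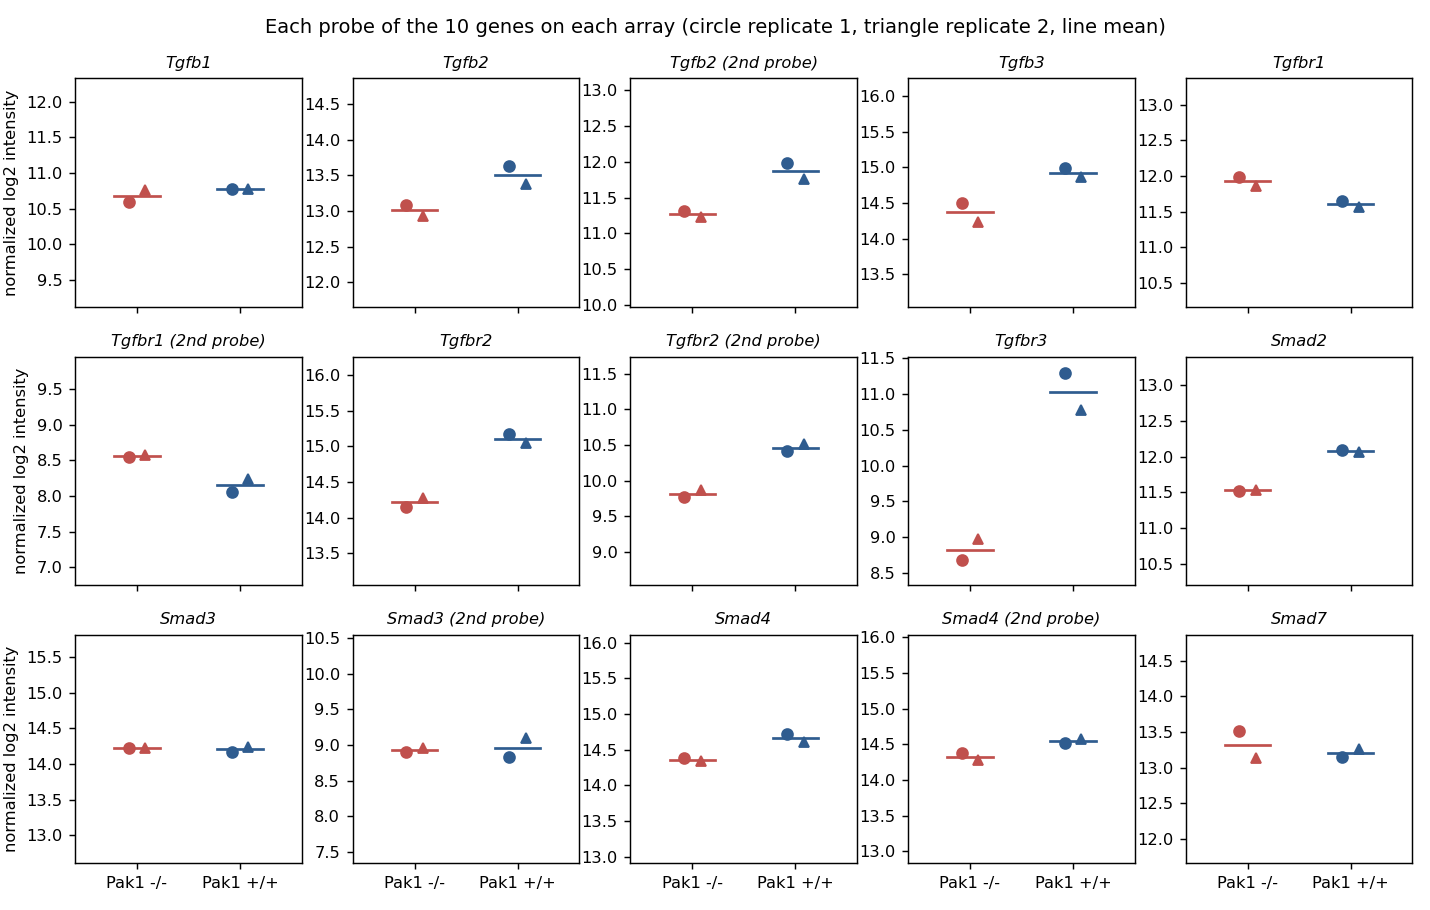
Normalized log2 intensity of each of the 15 probes on each of the 4 arrays (circles replicate 1, triangles replicate 2, lines group means; every panel spans the same number of log2 units, at its own level). The arrays labelled Pak1 -/- lay below both Pak1 +/+ arrays for Tgfb1, which did not pass the test, and for Tgfb2, Tgfb3, Tgfbr2, Tgfbr3, Smad2 and Smad4, above them for Tgfbr1, and overlapped with them for Smad3 and Smad7.

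The label check came from the Pak1 probe on the array (chr7:105060220-105060279, plus strand). It read 12.21 and 12.25 in the arrays labelled Pak1 -/- and 12.04 and 12.04 in the Pak1 +/+ arrays, a difference of 0.19 (SE 0.07) with a limma adjusted p of 0.070. Under cyclic loess normalization it passed as higher in the arrays labelled Pak1 -/- (0.27, limma adjusted p = 0.027, in a range of 0.027 to 0.24 over 15 alternatives). Loss of Pak1 RNA was thus not seen at this probe. Whether it lies in the part of the gene that was deleted is not given in the sources used here, so each direction below rests on the labels.

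Tgfb1, the most widely expressed ligand gene, did not pass the test. Its probe was printed as 10 spots on each array, and the normalized values were 10.59 and 10.76 in the arrays labelled Pak1 -/- and 10.78 and 10.78 in the Pak1 +/+ arrays. The groups did not overlap, but the gap between them was small beside the gap between the Pak1 -/- arrays. The difference was -0.11 (SE 0.09, 95% interval -0.33 to 0.12, limma adjusted p = 0.35). Before normalization, the 10 spots had medians of 1543 and 1782 in the arrays labelled Pak1 -/- and of 1837 and 1693 in the Pak1 +/+ arrays, so that the raw intensities of the groups overlapped. Spots of 1 array differed among themselves with an SD of 0.13 to 0.17 on the log2 scale, which is printing and scanning error and not biological spread.

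Tgfb2, the ligand gene whose product depends most on betaglycan, was lower in the arrays labelled Pak1 -/-, at 70.9% of the Pak1 +/+ level. Its brighter probe read 13.09 and 12.94 in the arrays labelled Pak1 -/- and 13.64 and 13.38 in the Pak1 +/+ arrays, means of 13.01 ± 0.11 and 13.51 ± 0.18 (SD, n = 2 each). Both Pak1 -/- arrays were below both Pak1 +/+ arrays, by a difference of -0.50 (SE 0.12, 95% interval -0.81 to -0.18, limma adjusted p = 0.024). The dimmer probe (chr1:188447534-188447593) gave the same direction, with 11.32 and 11.23 against 11.98 and 11.76, a difference of -0.60 (SE 0.10, limma adjusted p = 0.0088). The brighter probe's call depended on single arrays: the adjusted p was 0.062 without Pak1 -/- replicate 1, 0.11 without Pak1 -/- replicate 2 and 0.082 without Pak1 +/+ replicate 1, but 0.021 without Pak1 +/+ replicate 2, in a range of 0.013 to 0.11 over 15 alternatives.

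Tgfb3, the ligand gene known in the mammary gland for its induction at weaning, was lower by a similar amount, at 68.0% of the Pak1 +/+ level. Its probe (chr12:87397804-87397863, minus strand) read 14.51 and 14.23 in the arrays labelled Pak1 -/- and 14.99 and 14.86 in the Pak1 +/+ arrays. The groups did not overlap, and the difference was -0.56 (SE 0.12, 95% interval -0.87 to -0.24, limma adjusted p = 0.017). This probe too was printed as 10 spots, and before normalization the spots ran from 16786 to 23475 in the arrays labelled Pak1 -/- and from 25003 to 36613 in the Pak1 +/+ arrays, so that no spot of a Pak1 -/- array reached the dimmest spot of a Pak1 +/+ array. Spots of an array are repeated readings of the same RNA and add nothing to n. Without Pak1 +/+ replicate 1 the difference was -0.49 and the adjusted p was 0.069, in a range of 0.0086 to 0.069 over 15 alternatives.

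**Figure D2:**
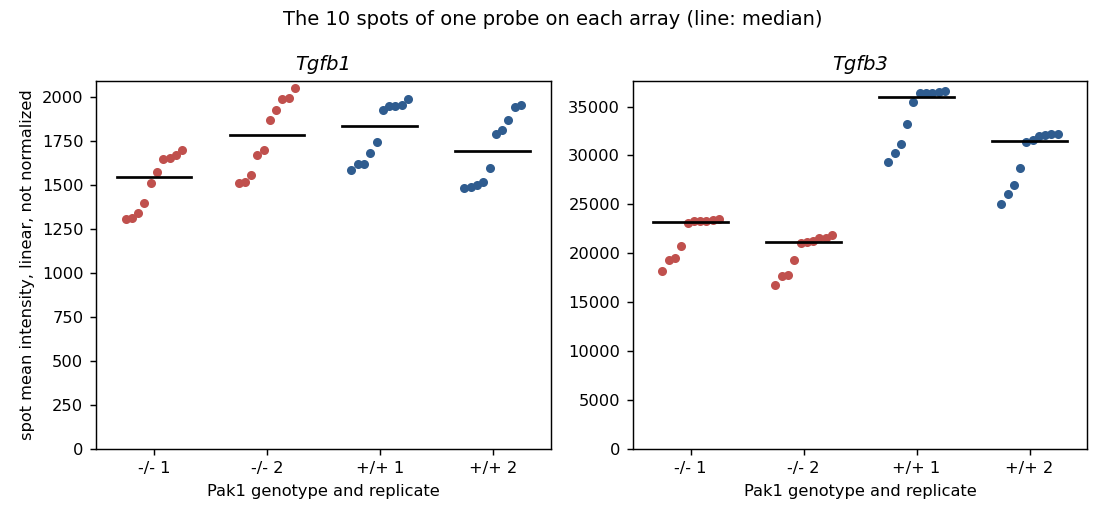
Linear spot intensity, not normalized, of the 10 spots of the Tgfb1 probe (left) and of the Tgfb3 probe (right) on each of the 4 arrays, with the median as a line. The Tgfb1 spots of the groups overlap, with medians of 1543 to 1837, whereas every Tgfb3 spot of the arrays labelled Pak1 -/- lies below 25003, the dimmest Pak1 +/+ spot.

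Tgfbr1 encodes the type I receptor kinase and was the 1 gene of the 10 called higher in the arrays labelled Pak1 -/-. Its brighter probe (chr4:47427736-47427795, plus strand) read 11.99 and 11.86 in the arrays labelled Pak1 -/- and 11.66 and 11.57 in the Pak1 +/+ arrays. The groups were close but separate, and the difference was 0.31 (SE 0.08, 95% interval 0.09 to 0.53, limma adjusted p = 0.034), a ratio of 1.24. The dimmer probe (chr4:47424946-47425005) read 8.54 and 8.58 against 8.06 and 8.24, a difference of 0.41 (SE 0.09, limma adjusted p = 0.017). Although its probes had the same sign, this was the least secure of the receptor calls. The brighter probe had an adjusted p of 0.11 without Pak1 -/- replicate 1, 0.084 without Pak1 +/+ replicate 1, 0.15 without Pak1 +/+ replicate 2 and 0.060 with no filter on dim probes, in a range of 0.012 to 0.15 over 15 alternatives.

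Tgfbr2 encodes the type II receptor, to which the ligand binds first, and was lower in the arrays labelled Pak1 -/- at 54.0% of the Pak1 +/+ level. The brighter probe (chr9:115997155-115997214, minus strand) read 14.15 and 14.28 in the arrays labelled Pak1 -/- and 15.16 and 15.04 in the Pak1 +/+ arrays. Means were 14.21 ± 0.10 and 15.10 ± 0.09 (SD, n = 2 each), so that the gap between genotypes was several times either gap between replicates. The difference was -0.89 (SE 0.09, 95% interval -1.13 to -0.65, limma adjusted p = 0.0019), and 7.50% of all genes tested were as low or lower. The dimmer probe, whose sequence ending on the stop codon is printed above, read 9.77 and 9.87 against 10.42 and 10.51, a difference of -0.65 (SE 0.08, limma adjusted p = 0.0032). The brighter probe lies further downstream in the transcript than the stop codon probe, and their differences were 0.24 apart, the widest gap among the 5 genes with 2 probes.

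Tgfbr3 encodes the co-receptor betaglycan and had the largest difference of the 10 genes, 4.65-fold lower in the arrays labelled Pak1 -/-. Its only probe (chr5:107535818-107535877, minus strand) read 8.68 and 8.96 in the arrays labelled Pak1 -/- and 11.29 and 10.78 in the Pak1 +/+ arrays, means of 8.82 ± 0.20 and 11.04 ± 0.36 (SD, n = 2 each). Replicates were further apart for Tgfbr3 than for the other 9 genes in the Pak1 +/+ arrays (a gap of 0.51), yet the genotypes were separated by -2.22 (SE 0.20, 95% interval -2.75 to -1.68, limma adjusted p = 0.0015). Before correction and normalization the spot read 401 and 494 in the arrays labelled Pak1 -/- and 2545 and 1677 in the Pak1 +/+ arrays, well above the median local background of 39.0 to 42.0. Of the 22014 genes tested, 211 (0.958%) were as low or lower. The difference ran from -2.47 to -1.96 over 15 alternatives, and the call held under each of them, including a rule that asked for at least a 2-fold change.

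**Figure D3:**
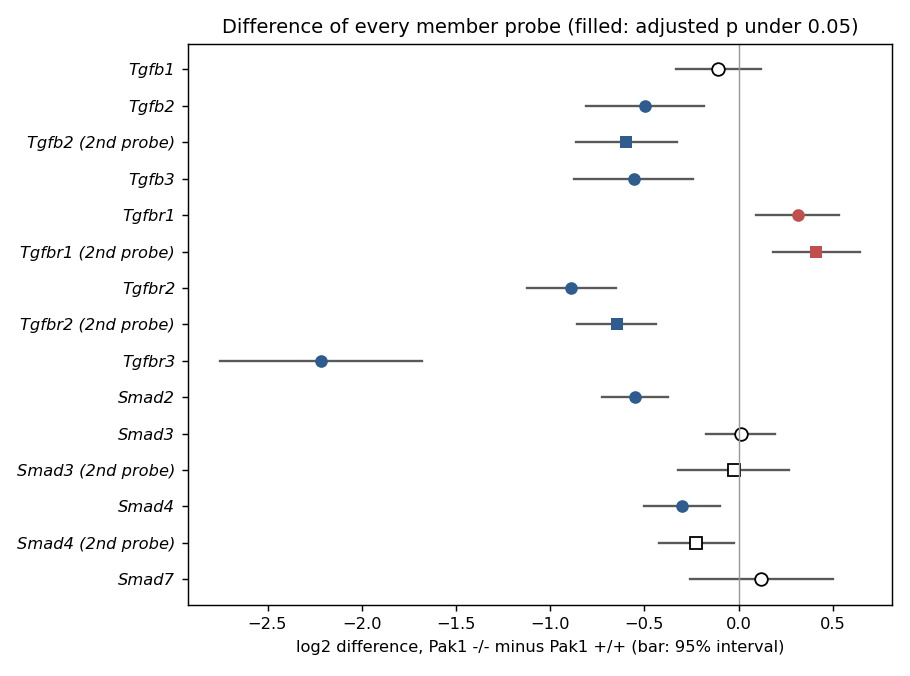
Difference in normalized log2 intensity, Pak1 -/- minus Pak1 +/+, of each of the 15 probes, with 95% intervals from the limma fit (circles the brightest probe of a gene, squares the dimmer probe, filled symbols an adjusted p under 0.05). Tgfbr3 stands at -2.22 and Tgfbr2 at -0.89, both Tgfbr1 probes are above 0, and the intervals of Tgfb1, Smad3 and Smad7 include 0.

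The expression of the SMAD genes was split in the same comparison. Smad2, a receptor-activated SMAD, was lower in the arrays labelled Pak1 -/- at 68.2% of the Pak1 +/+ level, with values of 11.52 and 11.54 against 12.09 and 12.07 at its probe (chr18:76464903-76464962). Replicates of Smad2 were 0.020 and 0.019 apart, and the difference was -0.55 (SE 0.07, 95% interval -0.73 to -0.38, limma adjusted p = 0.0031). Smad3, the other receptor-activated SMAD of the pathway, did not pass the test. Its brighter probe (chr9:63494574-63494633) read 14.22 and 14.22 in the arrays labelled Pak1 -/- and 14.17 and 14.24 in the Pak1 +/+ arrays, with the groups overlapping. The difference was 0.01 (SE 0.07, limma adjusted p = 0.92), and its 95% interval of -0.17 to 0.19 left out changes as large as that of Smad2. The dimmer Smad3 probe (chr9:63497492-63497551) overlapped between groups as well, with 8.91 and 8.96 against 8.83 and 9.10 and a difference of -0.03 (SE 0.11, limma adjusted p = 0.86).

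Smad4, the common partner of the receptor-activated SMADs, was lower at 81.1% of the Pak1 +/+ level by its brighter probe (chr18:73799668-73799727), with 14.39 and 14.33 in the arrays labelled Pak1 -/- and 14.72 and 14.61 in the Pak1 +/+ arrays. The difference was -0.30 (SE 0.08, 95% interval -0.50 to -0.10, limma adjusted p = 0.028). The dimmer probe (chr18:73798670-73798729) read 14.37 and 14.28 against 14.52 and 14.58, a difference of -0.22 (SE 0.08) that did not pass the test (limma adjusted p = 0.063). Without any 1 of the 4 arrays the brighter probe's call was lost, with adjusted p-values of 0.069, 0.091, 0.15 and 0.068, in a range of 0.017 to 0.15 over 15 alternatives. A further probe in the same region (chr18:73797826-73797885), annotated on the array as similar to Smad4 and not as Smad4, read 8.83 and 8.76 against 9.30 and 9.67, a difference of -0.69 (SE 0.14, limma adjusted p = 0.015). Because the accessions of the dimmer Smad4 probe also list a predicted Smad4-like transcript, the array does not settle which transcript that probe reads.

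Smad7, the inhibitory SMAD that is itself induced by the pathway, did not pass the test. Its probe (chr18:75555371-75555430) read 13.51 and 13.14 in the arrays labelled Pak1 -/- and 13.16 and 13.26 in the Pak1 +/+ arrays. The groups overlapped, because Pak1 -/- replicate 2 was the lowest of the 4 arrays and replicate 1 the highest. The difference was 0.12 (SE 0.14, 95% interval -0.26 to 0.50, limma adjusted p = 0.53), an interval wide enough to hold the difference of Tgfbr1 (0.31).

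**Figure D4:**
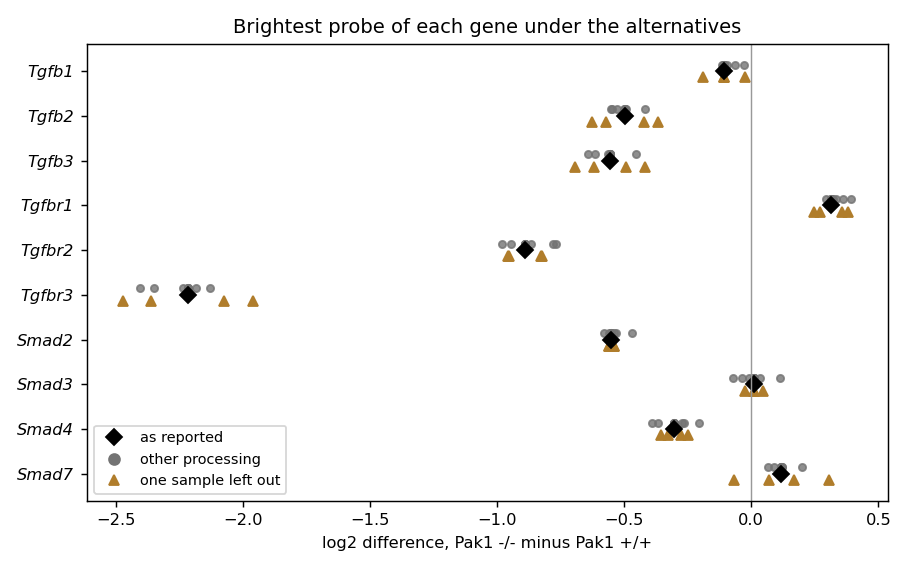
Difference in normalized log2 intensity of the brightest probe of each of the 10 genes as reported (diamonds), under other processing (circles) and with 1 array left out (triangles). Tgfbr3 stays between -2.47 and -1.96 and Tgfbr2 between -0.98 and -0.77, whereas Smad3 and Smad7, which did not pass the test, cross 0.

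Promoter sequence was read for the members with an entry in the RefSeq promoter table (GRCm38.p6), which matched 5 of the 10 genes in 6 windows of 250 bases before the transcript start. CAGAC, which contains the SMAD binding core, the AP-1 motif TGANTCA, the E-box CACGTG and the GC box GGGCGG were searched on both strands, and no motif contains another. They occurred in 42.2%, 6.75%, 6.02% and 32.7% of all 32851 promoters of this length. Of the genes that were lower, Tgfb2 (chr1:186705990-186706239, minus strand) held CAGAC 2 times and CACGTG 1 time, and Tgfbr2 (chr9:116175364-116175613, minus strand) held CAGAC 1 time. Those windows are printed with CAGAC in capitals.
Tgfb2 promoter: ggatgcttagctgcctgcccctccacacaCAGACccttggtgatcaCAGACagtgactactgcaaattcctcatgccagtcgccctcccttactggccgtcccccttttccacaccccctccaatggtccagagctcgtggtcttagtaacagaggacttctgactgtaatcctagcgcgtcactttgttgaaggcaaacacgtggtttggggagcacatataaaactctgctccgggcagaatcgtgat
Tgfbr2 promoter: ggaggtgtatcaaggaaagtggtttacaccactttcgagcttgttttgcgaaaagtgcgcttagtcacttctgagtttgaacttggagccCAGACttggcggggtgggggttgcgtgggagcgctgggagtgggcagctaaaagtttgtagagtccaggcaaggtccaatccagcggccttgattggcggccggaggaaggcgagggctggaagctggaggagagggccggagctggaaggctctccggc

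Among the other windows, that of Tgfb1 held GGGCGG 5 times, that of Smad3 held it 2 times, and the Tgfbr1 windows held GGGCGG 2 times and CAGAC 1 time respectively. Tgfb1 and Smad3 did not pass the test, and Tgfbr1 was the gene called higher, so CAGAC was not limited to genes that were lower. A motif match describes the letters of a window and is not a binding site.

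The other genes of the pathway were described by 4 lists, each read against the same background of 28.2% lower and 22.8% higher. For proteins that store, activate or present TGF-beta, 18 of 22 genes were tested, 12 were higher in the arrays labelled Pak1 -/-, none was lower and 6 did not pass, with a median difference of 0.45. At an unadjusted limma p under 0.05 the count lower was 0 as well. Vasn, a membrane protein that traps TGF-beta, read 13.98 and 13.92 in the arrays labelled Pak1 -/- and 11.69 and 12.03 in the Pak1 +/+ arrays, a difference of 2.09 (SE 0.13, limma adjusted p = 0.00058). Itgb6, the integrin subunit that releases active ligand from its latent complex, differed by 2.00 (SE 0.19, limma adjusted p = 0.0016), and Itgb8, which forms another ligand-activating integrin, by 1.17 (SE 0.10, limma adjusted p = 0.0013). Lrrc32, which holds latent TGF-beta at the cell surface, differed by 1.49 (SE 0.12, limma adjusted p = 0.0010). Nrros, Dcn, Emilin1 and Fbn1 did not rise well above background on any of the 4 arrays and were not tested.

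The activin branch uses its own ligands and receptors but passes its signal to the same Smad2 and Smad3. Of 17 genes 13 were tested, 6 were higher, 3 were lower and 4 did not pass, with a median of 0.31 (7 higher and 2 lower under cyclic loess normalization). The activin ligand subunit genes Inhbb and Inhba were higher, by 1.54 (SE 0.09, limma adjusted p = 0.00043) and by 1.17 (SE 0.09, limma adjusted p = 0.00095). Fstl3, a secreted inhibitor that binds activin, was higher too, with values of 13.15 and 13.05 against 10.39 and 9.75, a difference of 3.03 (SE 0.23, limma adjusted p = 0.00087). Acvrl1, a type I receptor kept in this list although it binds other ligands of the family and signals mainly through the SMADs of the bone morphogenetic protein branch, differed by 1.37 (SE 0.10, limma adjusted p = 0.00087). The type II receptor gene Acvr2b was lower, at 12.08 and 12.06 against 13.40 and 13.34, a difference of -1.30 (SE 0.07, limma adjusted p = 0.00039). Inha, the inhibin alpha subunit, was lower with a difference of -1.03 (SE 0.08, limma adjusted p = 0.0010), and Inhbe with a difference of -0.28 (SE 0.07, limma adjusted p = 0.028), a call that was lost in 11 of 15 alternatives, where its adjusted p ran from 0.022 to 0.15.

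Among 33 other SMADs and regulators inside the cell, 31 were tested, 8 were higher (25.8%), 6 were lower (19.4%) and 17 did not pass, with a median of 0.11. Cyclic loess normalization gave 12 higher and 4 lower in this list. Smad6, the inhibitory SMAD of the bone morphogenetic protein branch, was higher at 10.38 and 10.28 against 8.63 and 8.88, a difference of 1.58 (SE 0.11, limma adjusted p = 0.00076). Skil, a nuclear repressor of SMADs that TGF-beta induces, differed by 1.20 (SE 0.12, limma adjusted p = 0.0017), Nedd4l, a ubiquitin ligase for activated SMADs, by 0.78 (SE 0.07, limma adjusted p = 0.0013), and Zfyve9, which anchors Smad2 and Smad3 for the receptor, by 0.51 (SE 0.09, limma adjusted p = 0.0088). Lower were Strap, which works with Smad7 at the receptor (-0.81, SE 0.08, limma adjusted p = 0.0019), the ubiquitin ligase Wwp1 (-0.80, SE 0.07, limma adjusted p = 0.0014), the SMAD phosphatase Ppm1a (-0.68, SE 0.08, limma adjusted p = 0.0029) and the kinase Map3k7 of the SMAD-independent branch (-0.59, SE 0.08, limma adjusted p = 0.0039). Map3k7 had 3 probes that disagreed, the others at -0.36 (limma adjusted p = 0.035) and 0.19 (limma adjusted p = 0.070). Pmepa1, a target gene that feeds back on the pathway, had a difference of 0.22 (SE 0.09) and did not pass (limma adjusted p = 0.11), except under cyclic loess normalization (0.33, limma adjusted p = 0.043, in a range of 0.043 to 0.43 over 15 alternatives).

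The genes that TGF-beta is known to regulate moved in both directions: of 47, 43 were tested, 22 were higher, 10 were lower and 11 did not pass, with a median of 0.49, or 0.44 with 3 genes that were not well above background in a genotype set at their bound. Genes well above background on all 4 arrays gave 20 higher and 9 lower. The largest increases were those of Fn1, Timp1, Angptl4 and Sparc. Fn1 (fibronectin) read 17.11 and 16.24 in the arrays labelled Pak1 -/- and 9.92 and 10.21 in the Pak1 +/+ arrays, a difference of 6.61 (SE 0.31, limma adjusted p = 0.00027). Timp1, an inhibitor of metalloproteinases, differed by 5.08 (SE 0.19), the secreted factor Angptl4 by 3.53 (SE 0.12) and the matrix protein Sparc by 3.32 (SE 0.19), with limma adjusted p-values of 0.00016, 0.00014 and 0.00043. Ccn2, a matricellular growth factor gene, was higher by 1.61 (SE 0.20, limma adjusted p = 0.0032).

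Of the targets that were lower, Cdkn2b, a cyclin-dependent kinase inhibitor gene, was not well above background in either array labelled Pak1 -/- and read 13.11 and 13.28 in the Pak1 +/+ arrays. It passed the filter on dim probes through the Pak1 +/+ arrays alone, so no p is given. It was at least 95.5-fold lower, the Pak1 +/+ mean being set against the lowest signal well above background on each Pak1 -/- array. Hmga2, an architectural chromatin factor, read 10.36 and 10.26 against 12.75 and 12.70, a difference of -2.42 (SE 0.08, limma adjusted p = 0.00012). Pthlh, the parathyroid hormone-like ligand, differed by -1.71 (SE 0.15, limma adjusted p = 0.0013), and Myc, which TGF-beta is known to repress, by -1.20 (SE 0.09, limma adjusted p = 0.00089).

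**Figure D5:**
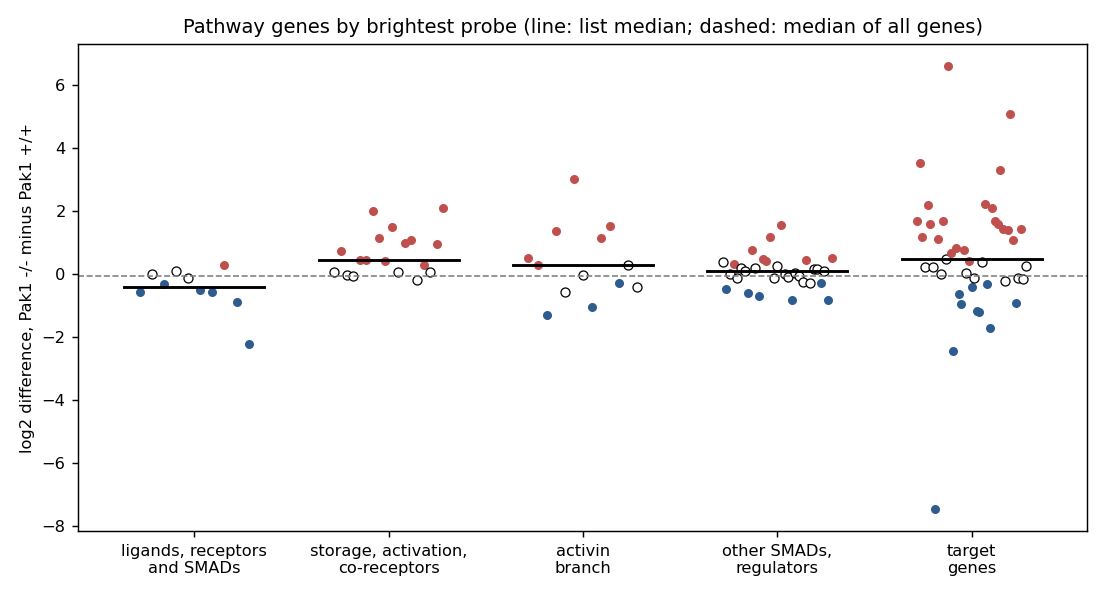
Difference in normalized log2 intensity, Pak1 -/- minus Pak1 +/+, of the tested genes of each list by brightest probe (red higher, blue lower and white not past an adjusted p of 0.05; solid line the list's median, dashed line the median of all genes at -0.05; points are spread sideways for display). The medians are -0.40 for the ligands, receptors and SMADs and 0.45, 0.31, 0.11 and 0.49 for the other lists, and the lowest point is Cdkn2b, which was not well above background in the arrays labelled Pak1 -/-.

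Hmga2 and Pthlh were also the genes of these lists whose pattern over the 4 arrays was most like that of Tgfbr3. Among 105 candidates, the Euclidean distance between values centred on each gene's mean was 0.475 for Hmga2, 0.543 for Pthlh and 0.993 for Acvr2b. These distances describe 4 arrays of 2 genotypes and carry no test.

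Single markers of some of the cell types that tumour-derived cultures could hold differed as well, and their part in the results above was not tested. Of 7 luminal epithelial markers 6 were well above background on all 4 arrays, and their summed linear level was 1093 and 1105 in the arrays labelled Pak1 -/- and 914 and 896 in the Pak1 +/+ arrays (linear normalized intensity divided by 1000, as for the other cell types). Krt8 and Krt18 made up most of these sums, and the other 5 luminal markers summed to 187 and 214 against 236 and 218. Of the 7, Krt8, Krt18 and Cdh1 were higher and 4 did not pass, with a median difference of -0.17. Basal epithelial markers (5 of 6 well above background on all 4 arrays) summed to 134 and 121 against 57.3 and 56.0, with Krt17 higher by 4.92 and Krt14 by 2.83. Without Krt14 and Krt17 the basal sums were 54.6 and 47.9 against 48.3 and 46.7, which overlapped. Krt5 (0.50) and Trp63 (0.43) were also higher, Itgb4 (0.01) did not pass, and the median difference of the 5 basal markers tested was 0.50. Fibroblast markers were near the floor at 1.05, 0.998, 1.45 and 0.850, with 1 of 7 well above background on all 4 arrays and Pdgfrb, Lum, Col5a1 and Dpt on none. Endothelial markers summed to 10.5, 10.1, 9.14 and 10.9 (2 of 6 on all 4 arrays, with Tek, Tie1 and Emcn on none), and 0.985, 1.10, 1.02 and 1.07 without Kdr. The brighter Kdr probe had a difference of 0.04 and did not pass, whereas the dimmer Kdr probe was higher by 1.37 (limma adjusted p = 0.00046). Leukocyte markers summed to 121 and 106 against 215 and 199 (6 of 8 on all 4 arrays, Lyz2 on none), with Cd14 lower (difference -1.70) and Ptprc lower (difference -0.45). The other leukocyte markers tested did not pass, with differences of 0.49 for Itgam, 0.25 for Cd3e, 0.12 for Csf1r and -0.20 for Cd68. Without Cd14 the leukocyte sums were 74.8 and 52.2 in the arrays labelled Pak1 -/- against 47.9 and 43.3 in the Pak1 +/+ arrays, most of it from the Itgam probe, and without Itgam as well they were 5.89 and 5.60 against 4.86 and 5.65, which overlapped. The dimmer Itgam probes, at -0.20 and 0.56, did not pass either.

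Across the series, the 4 arrays had median spot intensities of 322 to 331 and 62.2% to 70.4% of probes well above background. Replicates correlated across probes at 0.997 and arrays of different genotype at 0.954 to 0.959, and 14132 of 27229 probes kept were called. With 2 arrays a group, an exact permutation test of a single gene cannot give a two-sided p below 0.333, so the calls rest on the spread that limma shares across probes.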

How the data were processed

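The deposited scanner output of each array lists a linear intensity for every spot, measured with Agilent Feature Extraction 9.5.3.1 per the file headers (9.5 per the labels) and not normalized across arrays. A log2 table of these arrays, also deposited by the authors and normexp corrected and quantile normalized per the study's methods, was used as an alternative. From the intensities, background was corrected here with normexp (offset 50), and controls were dropped. Values were put on the log2 scale, quantile normalized and averaged over the spots of a probe, without outlier spots. The filter kept 27229 of 39429 probes, those well above background on 2 or more of the 4 arrays. They were compared with lmFit and eBayes (limma 3.58.1, R 4.3.3), genotype as the only term, two-sided, with Benjamini-Hochberg adjustment over the probes kept and a threshold of 0.05. The offset, which understates changes of dim probes, the filter and the threshold were set here. The script was tested on simulated data.

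Of the 32334 probes with an accession, 26055 were named through RefSeq, and the remaining probes go by their name on the array. The 10 genes and the lists were chosen with earlier results of these data known. Named were all 10 genes, Pak1, Ccn2, Skil, Pmepa1, Smad6 and, in each list, up to 4 genes with the largest called increases and decreases, plus the 3 genes most like Tgfbr3. A further gene that the rule names is not reported here. For a probe that was dim on both arrays of a genotype, only a bound is given. The number of arrays limits the precision. No label says that the arrays of a genotype came from separate cultures, so p-values measure only the spread between these samples, which may be technical.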

Additional observations from a re-analysis of the deposited data

How the results depend on the processing

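The calls of Tgfbr3, Tgfbr2 and Smad2 held under all 15 alternatives, with adjusted p-values up to 0.017, 0.015 and 0.022, except that Tgfbr2 and Smad2 did not reach a 2-fold change. The 6 genes called lower became 3 at an adjusted p of 0.01 and 1 when a 2-fold change was also asked for, and 3 to 5 when 1 array was left out. The 1 gene called higher became 0 with no filter on dim probes, at 0.01 and with the 2-fold rule, and 0 to 1 when 1 array was left out. Smad4 also missed the threshold under cyclic loess normalization (-0.21, adjusted p = 0.084) and with no filter (adjusted p = 0.0504). Smad3 and Smad7, which were not called, turned sign: Smad3 to -0.071 with processed signals scaled to the 75th percentile, -0.035 with normexp scaled in that way and -0.0081 as the mean over its probes. Without 1 array Smad3 ran from -0.026 (without Pak1 +/+ replicate 1) to 0.046, and Smad7 from -0.069 (without Pak1 -/- replicate 1) to 0.31. The 14132 probes called became 8878 at 0.01, 3413 with the 2-fold rule and 10312 to 12168 without 1 array. With the 2-fold rule, storage and activation genes called higher became 5, other SMADs and regulators became 2 higher and 0 lower, and targets called lower became 5. Without 1 array, 5 to 8 of the other SMADs and regulators were higher, against 10 when probes had to be well above background on all 4 arrays and 12 under cyclic loess normalization, which also gained the calls of Pak1 (0.27) and Pmepa1 (0.33). Where an array was left out, the lone sample of its group was assumed to vary like the others. Each other scaling moved the median difference of all genes by less than 0.1. The causes of these changes were not tested.

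With the replicate number as a block, 13211 probes were called and the 10 genes kept 6 lower and 1 higher. Deviations of same-numbered samples correlated at -0.028 across probes, so no shared deviation was seen after normalization. That does not settle whether same-numbered samples were handled as pairs. With the block, Inhbe alone of the named genes lost its call (limma adjusted p = 0.055).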
